A study of Homo sapiens with 3 samples.

Results

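The genes described here are the named transcripts of A549 cells outside the gene lists of the study, compared between cells given cordycepin and cells given vehicle. A gene was included when the accession of its probe matched a RefSeq name, when its brightest probe was well above background on the control or the cordycepin array, and when it was neither in the ontology table of the study nor among the genes whose products its text follows. Of 22431 named genes with a probe, 15915 were measured in this way, and 15845 remained after the 70 genes of those lists were left out. A549 is an established human lung adenocarcinoma line. The control culture was given 0.1% DMSO and the cordycepin culture 60 μg/mL cordycepin, each for 48 h; whether the cordycepin culture also held DMSO is not given in the sources used here. By the sample labels, zinc sulfate (16.7 μM), the PPARγ agonist troglitazone (10 μM) and the vitamin nicotinamide (10 mM) stood in the DMEM of both groups, together with serum (10%) and antibiotics (1% penicillin-streptomycin); the methods of the study name only the serum and the antibiotics. There was 1 array per condition (n = 1). Every difference below is therefore a difference between 2 arrays, with no replicate error, no test and no p-value.

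Cordycepin is 3'-deoxyadenosine, an analog of adenosine that cells phosphorylate. Its triphosphate lacks the hydroxyl group to which the next nucleotide would be joined, and it is known as a chain terminator and as an inhibitor of polyadenylation, the addition of the A tail that most messenger RNAs carry. The array measures the abundance of a transcript after labeling of the RNA, so that synthesis, processing and decay are not separated, and fewer cells of a kind cannot be told apart from less RNA per cell.

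The arrays were alike in quality. On the control array 28494 probes (49.0%) and on the cordycepin array 27666 probes (47.5%) were well above background, and no spot was saturated. Signals below are the processed signals of each array in arbitrary units before scaling; folds and log2 ratios were taken after each array was scaled to its 75th percentile, which lay at 260.1 for the control and at 224.3 for cordycepin. For 3675 genes with at least 2 probes measured on both arrays, the spread of a single probe's log2 ratio was 0.26, and 6.64% of the probe pairs differed by more than 1 on the log2 scale. This spread is technical and does not replace replicates.

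The identity of the cells was checked by marker genes. All 10 epithelial carcinoma markers were measured on both arrays. KRT18, a keratin of simple epithelia, gave 240731 in control cells and 264983 with cordycepin, and AKR1B10, an aldo-keto reductase abundant in this line, gave 203896 and 123021. EPCAM, the epithelial cell adhesion molecule, was the only one of the 10 past 2-fold, with 1066 and 323 (log2 ratio -1.51). Of 8 fibroblast markers 1 was measured on both arrays, of 8 endothelial markers 3, each with signals under 62 on either array, and of 8 leukocyte markers 4. The brightest of these was CD14, with 3387 in control cells and 1559 with cordycepin. One measurement went against what is known of the line: CDKN2A, whose locus is deleted in A549, was well above background by 1 of its 2 probes, at 4587 and 1962. MTAP, which lies beside it, was measured by 1 of 3 probes, while the probe of CDKN2B was not well above background on either array. Which transcripts the CDKN2A and MTAP probes detect was not tested.

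Most genes differed little between the arrays. Of the 15845 genes, 14530 were measured on both arrays, 762 on the control array only and 553 on the cordycepin array only. Over the 14530, the median log2 ratio of cordycepin over control was -0.05, the middle 50% lay between -0.32 and 0.25, and 72.2% lay within 0.5 of no difference. By the rule of at least 2-fold, 903 genes were higher with cordycepin (5.7% of those described) and 552 were lower (3.48%). Over all 15915 named genes the shares were 5.95% and 3.58%, and over all probes 7.07% and 3.62%. Of the higher genes, 531 were measured on both arrays and 372 were called through a bound, since they were not well above background in control cells. Of the lower genes, 429 were measured on both arrays and 123 were called through a bound. The balance of the directions depended on the scaling: higher genes made up 62.1% of the calls, and 32.6% with median scaling, which gave 561 higher and 1162 lower genes and moved the median log2 ratio to -0.32. For that reason groups of genes are given below relative to the median of all 14530 genes, a value that a change of scaling factor leaves as it is.

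Differences of at least 4-fold were seen for 80 genes in the higher and 31 genes in the lower direction, and differences of at least 8-fold for 15 and 5. The genes at the threshold show how narrow a call can be. BRCA1, with a log2 ratio of 1.00268, was counted as higher, and ARVCF, with 0.998088, was not. NNMT, at -1.00174, was counted as lower, and TMEM45A, at -0.998854, was not. The direction also went with brightness. With the genes put into 5 equal bins by brightness, the dimmest bin had mean signals from 22.5 to 128, and 7.78% of its genes were higher and 3.96% lower. In the brightest bin, with mean signals of at least 3058, 0.895% were higher and 2.17% lower. Bright transcripts that differed were thus more often lower, and dim ones more often higher, and how much of this comes from the behaviour of dim spots was not tested.

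**Figure D1:**
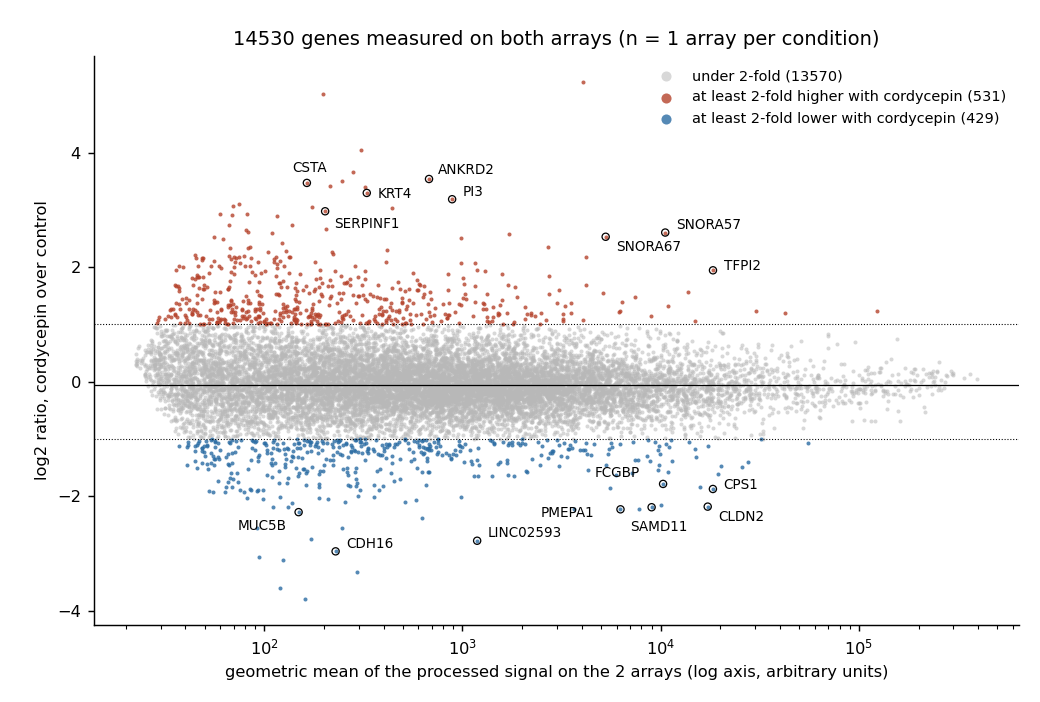
Log2 ratio of cordycepin over control (vertical axis) against the geometric mean of the processed signal on both arrays (horizontal log axis, arbitrary units) for the 14530 genes measured on both arrays, 1 point per gene and 1 array per condition. The 531 higher genes lie mostly at low signals, while several of the 429 lower genes, such as CLDN2 and CPS1, are bright; the solid line is the median of -0.05 and the dotted lines mark 2-fold.

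The largest rises measured on both arrays began with SAA1, PINCR, SAA4 and CCL5. Below these stood genes of muscle, keratinizing epithelium, secreted inhibitors and signaling. ANKRD2, a muscle ankyrin repeat protein that responds to stretch, gave 214 in control cells and 2146 with cordycepin, an 11.6-fold difference. NTN1, which encodes the guidance protein netrin-1, gave 79.4 and 774. CSTA, which encodes cystatin A, a cysteine protease inhibitor of the cornified layer, gave 53.1 and 507, 11.1-fold. KRT4, a keratin of the mucosal lining of the esophagus, gave 113 and 957. PI3, which encodes the elastase inhibitor elafin, gave 317 and 2484, 9.1-fold. These were dim or moderate transcripts in control cells that reached a moderate signal with cordycepin, and NECTIN4, a cell adhesion protein, followed the same course from 70.7 to 654.

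Signaling genes were also among the 25 largest rises. INPP5D, which encodes the lipid phosphatase SHIP1 of blood cells, gave 167 and 1175, 8.18-fold. CYRIA, a regulator of RAC1-driven actin assembly, gave 107 and 967, and BLNK, an adaptor of the B cell receptor, 32.1 and 210.2. DACT3, an inhibitor of Wnt signaling, gave 65.3 and 464. SERPINF1, which encodes the secreted factor PEDF, gave 77.9 and 528. RRAD, a small GTPase first described in muscle, gave 36.2 and 191, and SLC52A3, a riboflavin transporter, 34.9 and 188. For 18 of the 25 genes the control signal was under 100, and none of the 25 had another probe that was measured on both arrays, so each of these values rests on 1 probe. Their size also depended on the processing. At their lowest among the alternatives, the log2 ratios of CSTA, BLNK and RRAD went from 3.47, 2.92 and 2.62 to 2.58, 1.62 and 1.45. Those of ANKRD2 and PI3 went less far, from 3.54 and 3.19 to 3.09 and 2.89. The exception in brightness was SNORA57, a small nucleolar RNA, which went from 4605 to 24142, 6.08-fold.

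The largest falls had brighter starting points. Of the 25 genes, 10 had a control signal of at least 1000 and none was under 100. To be measured on both arrays, a gene had to stay well above background after its fall. Falls of this size, at least 4.13-fold, could therefore not start from dim signals, so the lack of dim starts follows from the rule. They included CACNG4 and PRR15L. CDH16, the kidney-specific cadherin, gave 688 and 76.3, 7.77-fold lower. CLDN2, which encodes the pore-forming claudin-2 of tight junctions, was among the brighter transcripts of control cells at 39572 and gave 7538 with cordycepin, 4.53-fold lower. FXYD2, a regulatory subunit of the sodium pump, gave 22838 and 4457, and its other measured probe gave a log2 ratio of -1.96 beside -2.14. CLDN2 and FXYD2 were far above the faintest detected signal of 21.8 with cordycepin, whereas CACNG4 and PRR15L fell to 40.1 and 31.999, near it, and their log2 ratios of -3.79 and -3.59 shrank to -2.36 and -2.12 with normexp background correction.

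Enzymes and regulators were found among the largest falls as well. The alcohol dehydrogenase ADH1C gave 1146 and 229.96 and its relative ADH4 gave 255 and 48.5. PRODH2, which degrades hydroxyproline, gave 477 and 61.8, 6.66-fold lower. PMEPA1, a membrane protein that restrains TGF-β signaling, gave 14603 and 2692, with -1.45 for its other probe beside a log2 ratio of -2.23. SAMD11 gave 20699 and 3914, and ADAMTS10, a secreted metalloprotease of the extracellular matrix, 8472 and 1561. LINC02593, a long non-coding RNA, gave 3340.0 and 421, and its other 2 probes gave log2 ratios of -1.93 and -1.90, smaller than the -2.77 of the brightest. For IER5L the brightest probe gave -2.21 and the other -0.68, and for TRIM10 they gave -2.18 and -0.33, so that the size of these falls depended on the probe. MTUS1, a microtubule-associated protein, gave 1278 and 265, and its other probe -1.20. Over all 14530 genes, another measured probe was available for 71 of the 531 higher genes, and every other probe was also above 0 in 63 of them; for the lower genes it was 74 of 88.

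**Figure D2:**
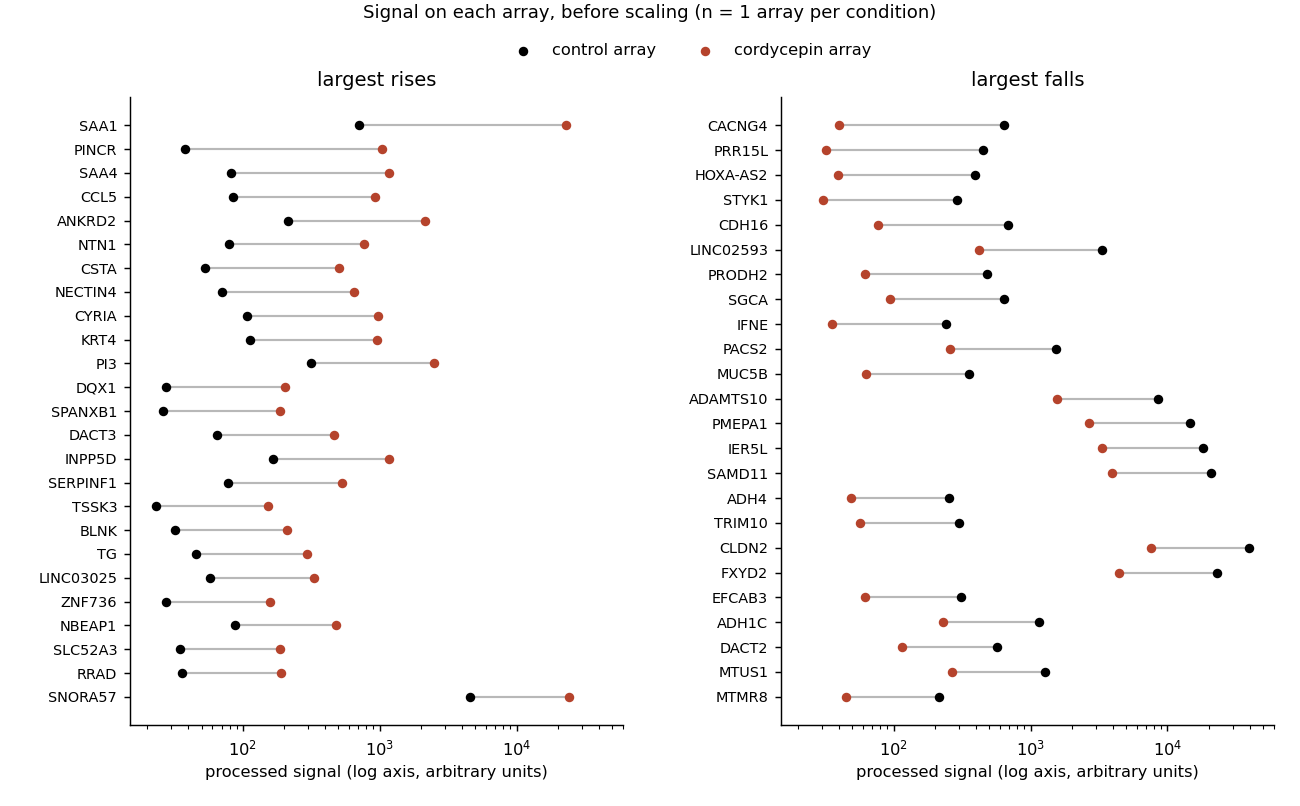
Processed signal (horizontal log axis, arbitrary units, before scaling) on the control array (black) and the cordycepin array (red) for the 25 largest rises and 24 of the 25 largest falls measured on both arrays, 1 array per condition. Most rises start under 100 in control cells, whereas falls such as CLDN2, SAMD11 and FXYD2 start at 20699 or more. Falls had to remain detected with cordycepin, so none could start near background.

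Calls that rest on a bound were less secure. For a bound, the dim side was taken at its own signal or, if larger, at the faintest signal that counted as detected on the same array. The largest was that of PRAC1, a small nuclear protein known from prostate and colon, at 4.19 on the control array and 945 with cordycepin, at least 58.8-fold higher. OR1N2, an olfactory receptor, was at least 23.5-fold higher and POU2AF2, a coactivator of the POU factor of tuft cells, at least 23.4-fold. In the other direction LGALS2, which encodes galectin-2, gave 497 and 27.1, at least 15.8-fold lower, and NEB, the giant muscle protein nebulin, was at least 10.7-fold lower. Over all 372 bounds in the higher direction, the median signal on the cordycepin array was 49.997, and the median bound was 3.09-fold. Of these 372 genes, 127 had another probe, in 12 of them it was well above background on either array, and in 4 it was itself called higher. Of the 123 bounds in the lower direction, 35 had another probe, 10 a measured one and 3 a call in the same direction. Most bounds thus had no second probe that bore on them.

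To describe programs across the transcriptome, 56 lists of genes by function were read against the median of all genes. Counts of genes called in a list stand beside 5.7% higher and 3.48% lower over all genes. In 34 of them the median lay within 0.1 on the log2 scale, and in 49 within 0.25. Medians more than 0.25 above were found for 4 lists, the circadian clock genes, the genes of homologous recombination and Fanconi anaemia, the ephrins with their Eph receptors, and the serpins with the plasminogen system and kallikreins. Medians more than 0.25 below were found for 3, the laminins and other basement membrane genes, the mucins with secretory cell genes, and the BMP and activin pathway. The highest was 0.49 and the lowest -0.26. These 7 medians stayed on the same side of the median of all genes in all 10 alternative ways of processing. Alternatives that only changed the scaling factor or required detection on both arrays could not move these differences, and are no check of them. In at least 1 alternative, 4 of the 7 medians came within 0.25 of the median of all genes. These were the mucins at -0.13, the laminins at -0.15, the ephrins at 0.22 and the BMP pathway at -0.247.

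**Figure D3:**
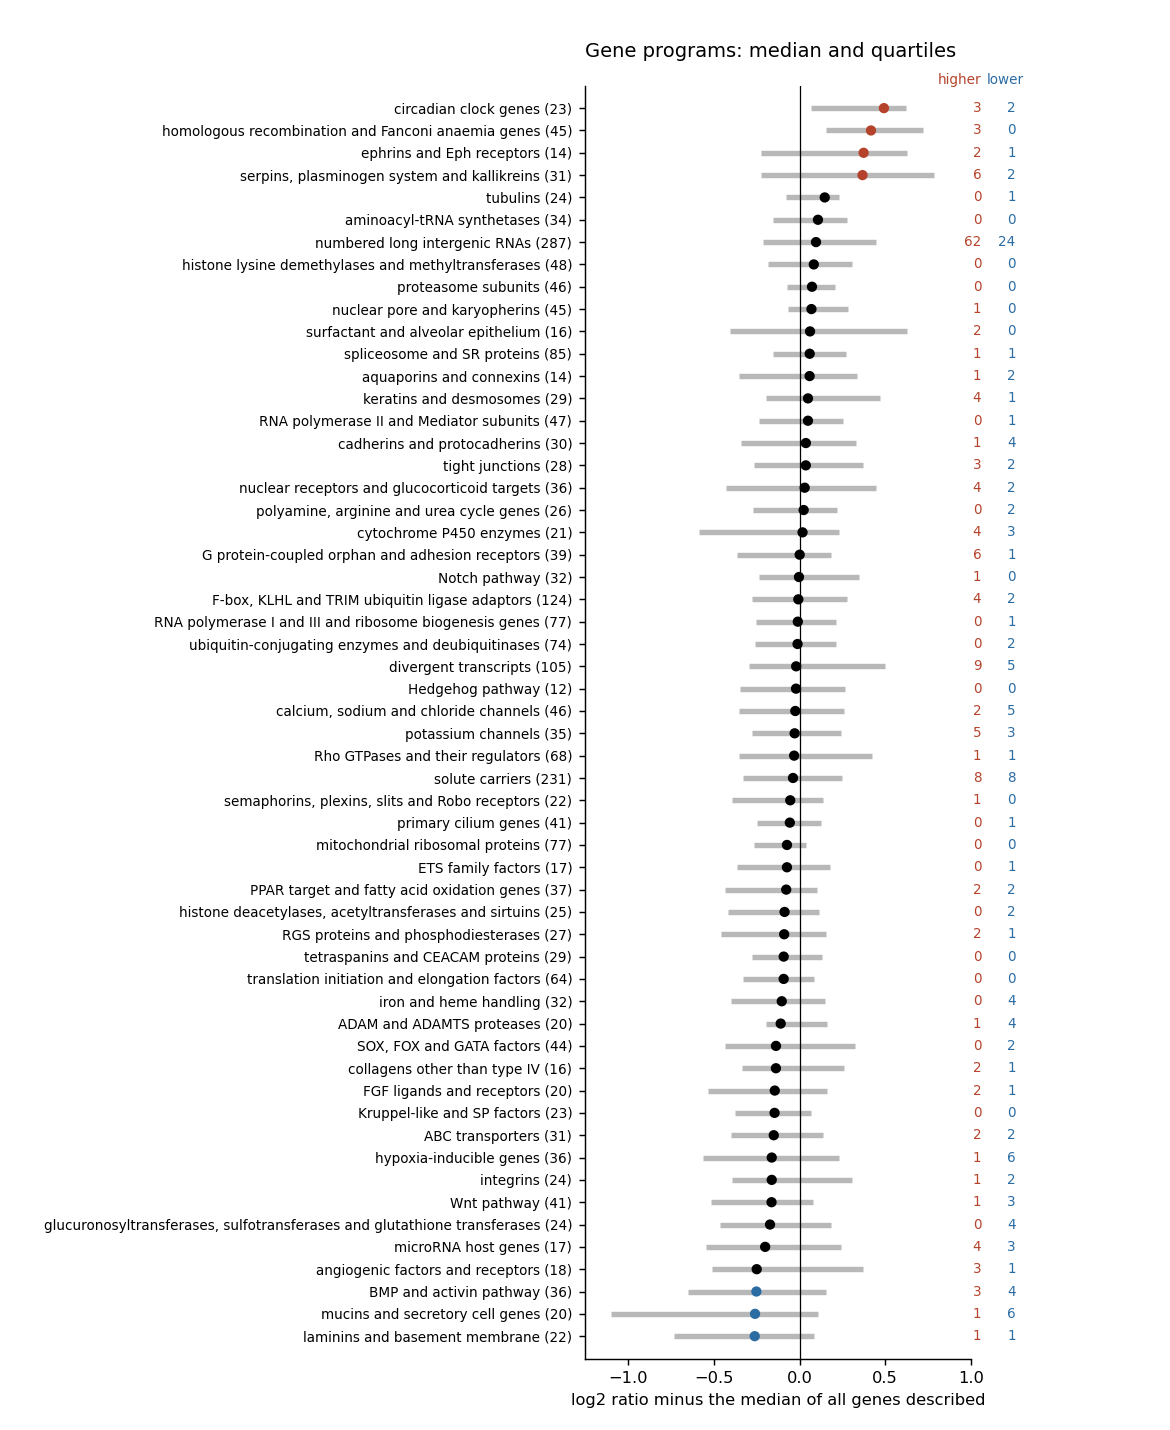
Median (dot) and quartiles (bar) of the log2 ratio of cordycepin over control, minus the median of all 14530 genes, for 56 lists of genes, with the number of genes measured on both arrays in parentheses and the numbers called at least 2-fold higher (red) and lower (blue) on the right. Most medians lie near 0; red and blue dots mark the 4 lists above 0.25 and the 3 below -0.25.

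The core machinery of the cell was even between the arrays. Among 64 translation initiation and elongation factors, 77 mitochondrial ribosomal proteins, 46 proteasome subunits and 34 aminoacyl-tRNA synthetases, no gene reached 2-fold in either direction, beside 5.7% higher and 3.48% lower over all genes. Those shares include bounds and dim genes, whereas every gene of these lists was measured on both arrays. Of protein-coding genes measured on both arrays 3.41% were higher and 2.94% lower, and in the brightest bin of genes 0.895% and 2.17%. The 221 genes of the lists were not matched to other genes by brightness. With median scaling 5 of these 221 genes were lower and none was higher. The medians of these 4 lists lay between -0.09 and 0.11 of that of all genes. Of 86 spliceosome genes and SR proteins, HNRNPL, a splicing regulator, was higher at 1863 and 3238, and SRSF8 was lower at 284 and 106. Among 47 RNA polymerase II and Mediator subunits, MED12, a subunit of the Mediator kinase module, was the only one called and was lower at 91.7 and 37.6. With normexp background correction neither the spliceosome list nor this list had a call. The log2 ratio of MED12 went from -1.07 to -0.34 at its weakest among the alternatives.

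Genes of homologous recombination and the Fanconi anaemia pathway act together to repair broken and crosslinked DNA. Their median lay 0.42 above that of all genes, and 37 of the 45 genes lay above it. Genes past 2-fold included EME1, a subunit of a junction-cutting nuclease, at 331 in control cells and 740.3 with cordycepin, and BRCA1, a scaffold of this repair, at 479 and 827. At the lower end FANCF gave -0.37. No gene of the list was lower by 2-fold under any of the scalings tried, and the number higher ranged from 2 to 5. UBE2T, a ubiquitin-conjugating enzyme of the Fanconi pathway, gave 0.93.

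The circadian clock is a feedback loop in which the CLOCK and BMAL proteins activate the PER and CRY genes, whose products repress them. The median of the 23 clock genes lay 0.49 above that of all genes, and 18 lay above it. PER1 gave 337 and 674, CRY1 106 and 196, and BHLHE41, a repressor of the loop, 30.4 and 61.3, each past 2-fold. HLF, a PAR-bZIP output factor, was lower at 268 and 111. No clock gene reached 2-fold in the higher direction with median scaling, and with normexp background correction 1 did and none was lower. The HLF probe was brighter in control cells than those of BHLHE41 and CRY1, but signals of different probes do not rank transcripts.

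Serpins are protease inhibitors, and plasminogen activators and kallikreins are among the proteases that they or their relatives control. Of 33 measured genes of this list 6 were higher (18.2%, beside 5.7% of all genes) and 2 lower (6.06%, beside 3.48%), all on both arrays. SERPINB3 gave 649 and 2169.8 and its close paralog SERPINB4 581 and 1760.1; whether their probes separate them was not tested. TFPI2, an inhibitor secreted into the matrix, was the brightest of the list to differ, at 10077 and 33463, 3.85-fold. PLAT, the tissue plasminogen activator, gave 177 and 586. The lower genes were PROS1, which encodes the anticoagulant protein S, at 1778 and 675, and SERPINB11 at 73.0 and 22.9. The other probe of PROS1 gave -0.996.

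Ephrins are membrane-bound ligands of the Eph receptor kinases. The ligand gene EFNB1 gave 1946 and 3539 and the receptor gene EPHB3 44.5 and 81.6, both just past 2-fold, while EFNB3 was lower at 318 and 120.4. Of the 14 genes, 9 lay above the median of all genes. With median scaling neither EFNB1 nor EPHB3 was counted, and EFNB3 was.

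Mucins are the large glycoproteins of mucus. Of 21 measured mucin and secretory cell genes 6 were lower (28.6%, beside 3.48% of all genes) and 1 was higher (4.76%, beside 5.7%). MUC5B, a gel-forming mucin of the airway, gave 353 and 62.9, 4.84-fold lower. FCGBP, a protein secreted with mucus, gave 20542 and 5149, 3.44-fold lower. SPDEF, a transcription factor of goblet cells, gave 580 and 147, and MUC1, a membrane-bound mucin, 352 and 103.6. MUC16 gave 148 and 49.7, and FOXQ1, a transcription factor of the list, 7259 and 2959.8. The gene on the other side was PIGR, which carries antibodies across epithelia, at 56.6 and 126. AGR2, an endoplasmic reticulum protein needed for mucin folding, is not among the named genes by rule; it gave 35763 and 15638, a log2 ratio of -0.98. The scalings and background correction gave 5 to 8 lower genes. Of 18 lamellar body, surfactant and alveolar epithelium genes 2 were higher (11.1%, beside 5.7% of all genes) and none was lower (beside 3.48%), and median scaling gave 1 lower. LAMP3, a protein of lamellar bodies, gave 51.4 and 213, and HOPX was higher by a bound. Others of the list lay on both sides without reaching 2-fold. ABCA3, the lipid transporter of lamellar bodies, gave a log2 ratio of -0.82, SFTPA2 -0.66 and SFTPC -0.39. NKX2-1 gave 0.98, at the low signals of 22.7 and 38.7, and AGER 0.60. The median of the list lay 0.06 above that of all genes, with 9 genes above that value and 7 below.

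**Figure D4:**
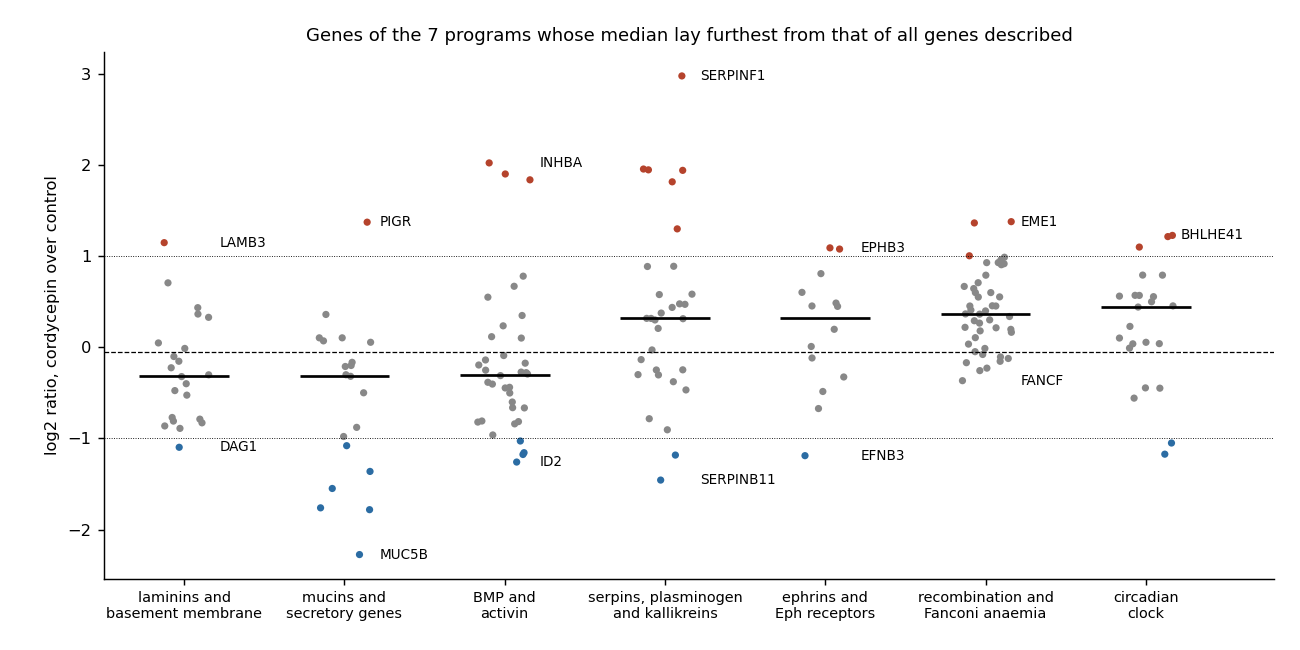
Log2 ratio of cordycepin over control for each gene of the 7 lists whose median (black bar) lay more than 0.25 from that of all genes (dashed line), 1 point per gene measured on both arrays; red and blue points are past 2-fold (dotted lines) and the highest and lowest gene of most lists are named. Recombination genes lie close together, from -0.37 to 1.38, while mucin and serpin genes spread widely, to -2.27 for MUC5B and 2.98 for SERPINF1.

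In the BMP and activin pathway, secreted ligands bind receptor kinases that signal through SMAD proteins, and the ID genes are classic targets. Among the targets, ID2 gave 16582 and 5970.4 with -1.252 for its other probe, and ID3 5573 and 2125, both lower; ID1, outside the rule, gave 71454 and 38898, a log2 ratio of -0.66. Of the receptors BMPR2 was lower at 139.9 and 54.1 and ACVRL1 higher at 53.5 and 172. Of the ligands BMP6 was lower at 964 and 407, while INHBA, which encodes the activin A chain, was higher at 24.6 and 86.2. The antagonist NOG was higher at 26.3 and 80.8. Thus 3 genes of 37 were higher (8.11%, beside 5.7% of all genes), all dim in control cells, and 4 were lower (10.8%, beside 3.48%). Under median scaling the lower genes numbered 9, and with normexp 1 gene was higher and 2 were lower, INHBA and NOG then having log2 ratios of 0.94 and 0.83.

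Basement membrane genes encode laminins, type IV collagens and their linkers. LAMB3, a chain of the epithelial laminin-332, was higher at 6503 and 12414, and DAG1, which encodes the laminin receptor dystroglycan, lower at 669.8 and 269.8. No other gene of the 22 reached 2-fold, although 15 lay below the median of all genes. Type IV collagen genes COL4A5 and COL4A6 gave log2 ratios of -0.89 and -0.83. Median scaling gave 7 lower genes and none higher. Other matrix genes with large values were COL18A1, whose product is the source of endostatin, at 48124 and 15681, and ADAMTS9 at 2683 and 744, both lower.

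Keratins, junction genes and their regulators moved in both directions. Of 33 measured keratin and desmosome genes 4 were higher (12.1%, beside 5.7% of all genes) and 1 was lower (3.03%, beside 3.48%). The higher genes were KRT4, KRT15 with 617 and 1189.6, and by bounds the basal and stress keratins KRT14 and KRT6B. The lower gene was KRT20, a keratin of gut epithelium, at 77.7 and 30.1. Of 32 tight junction genes 3 were higher (9.38%) and 2 lower (6.25%). GRHL1, a transcription factor of surface epithelium, was higher at 121 and 304, and 2 others were higher by bounds. CLDN2 and PATJ were lower. Of 38 measured cadherins and protocadherins 4 were lower (10.5%, beside 3.48% of all genes) and 1 was higher by a bound (2.63%, beside 5.7%). The lower genes were CDH16 and CDH23 on both arrays and CDH6 and PCDHGA12 by bounds. CDH23 rests on its brightest probe at -1.14, since its other 2 probes gave -0.21 and 0.84. Normexp gave 1 lower gene of this list and median scaling 6.

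CPS1, the mitochondrial enzyme that feeds ammonia into the urea cycle, gave 37779.8 and 8909, 3.66-fold lower. ABCC3, an exporter of conjugated compounds, gave 36521 and 10378, with -0.74 for its other probe beside -1.60. CYP24A1, which degrades active vitamin D, gave 17530 and 5510.3, with -1.17 for its other probe. The glucuronosyltransferase genes UGT1A6, at 24133 and 9214, and UGT1A8, at 4013 and 1588, were lower; the genes of this locus share their last exons, so these values may not be separate. Of 26 conjugating enzymes in all 4 were lower (15.4%, beside 3.48% of all genes) and none was higher (beside 5.7%). PDK4, which restrains entry of pyruvate into the mitochondrial cycle, gave 17562 and 6870.1. Of 250 solute carriers 8 were higher (3.2%, beside 5.7% of all genes) and 8 lower (3.2%, beside 3.48%), and median scaling gave 7 and 27. The bicarbonate transporter gene SLC4A4 was lower at 806 and 198.

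Of 36 measured genes known to respond to low oxygen 6 were lower (16.7%, beside 3.48% of all genes) and 1 was higher (2.78%, beside 5.7%), with 5 to 8 lower under the scalings and background correction. CA9 and CA12 encode carbonic anhydrases of the cell surface; CA9 gave 354 and 100.03 and CA12 15651 and 6210.4. HILPDA, a lipid droplet protein, gave 19774 and 6554, and DDIT4, an inhibitor of mTOR, 25453 and 8856. PFKFB3, a regulator of glycolysis, gave 7052 and 2538, but its other probe gave -0.04, and EGLN3, an oxygen sensor, gave 204 and 78.4. ALDOC, a glycolytic enzyme, was the higher gene at 315 and 1007. The median of the list lay 0.16 below that of all genes. Of 34 genes of iron and heme handling 4 were lower (11.8%, beside 3.48% of all genes) and none was higher. Among them were HMOX1, which degrades heme, at 11222 and 4681, and STEAP1, a metalloreductase, at 4629 and 1734, with -1.28 for its other probe. Quantile normalization gave 2 lower genes, normexp 1 and median scaling 6.

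In the Wnt pathway the receptor gene FZD8, the ligase gene RNF43 that removes such receptors, at 9078 and 3542, and the secreted inhibitor gene DKK1, at 16726 and 6827, were lower, and NKD2, an inhibitor of the pathway, was higher at 2293 and 4463. Among semaphorins and plexins PLXNB3 was higher at 40.4 and 179. Of 42 measured potassium channels 5 were higher (11.9%, beside 5.7%) and 3 lower (7.14%, beside 3.48%), KCNQ1 among the latter at 882 and 229.5. This balance depended on the processing, with 2 higher and 4 lower under median scaling and 2 of each with normexp. Among SOX, FOX and GATA factors SOX2 was lower at 2682 and 1099.5 together with FOXQ1. Kruppel-like and SP factors, 24 genes, had no call, while median scaling gave 4 lower and quantile normalization 2.

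Small nucleolar RNAs guide chemical modification of ribosomal and other RNAs, pseudouridylation in the H/ACA class (SNORA) and 2'-O-methylation in the C/D class (SNORD), and most are cut from introns of host genes and carry no A tail. The primer used for labeling is not given in the sources used here, so how such RNAs entered the labeled material is unknown. Of 91 measured H/ACA genes 17 were higher (18.7%) and none was lower, and their median lay 0.38 above that of all genes. Of 88 measured on both arrays, 73 lay above the median of all genes. SNORA67 gave 2365 and 11781, SNORA48 755 and 3898, and SNORA2B 443 and 2176, with folds of 5.78, 5.99 and 5.70. Of 138 measured C/D genes 14 were higher (10.1%) and 1 was lower, with a median 0.36 above that of all genes. Of these 14, 10 are copies of 1 family, SNORD114, given below. For comparison 5.03% of 13793 protein-coding genes were higher and 3.41% lower. With median scaling 14 H/ACA genes were higher and none was lower, and 9 C/D genes were higher and 4 lower; with normexp 13 H/ACA and 4 C/D genes were higher. Each of the H/ACA genes named had 1 measured probe.

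**Figure D5:**
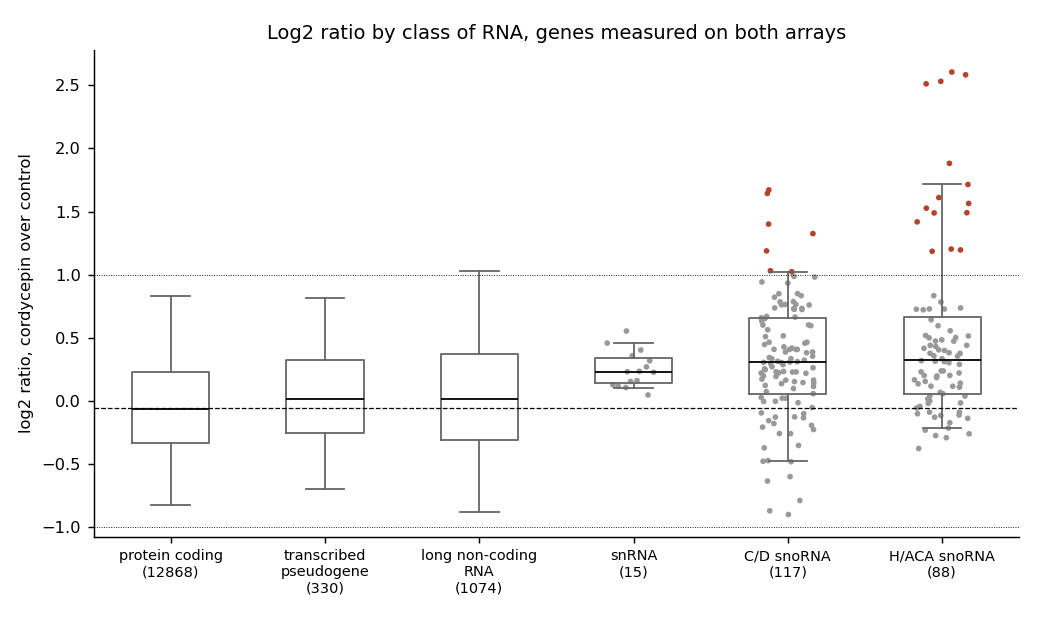
Log2 ratio of cordycepin over control by class of RNA for genes measured on both arrays, with the number of genes in parentheses; boxes are quartiles, whiskers the 5th to 95th percentile, and points the single snRNA and snoRNA genes. The dashed line is the median of all genes and the dotted lines mark 2-fold; both snoRNA classes lie above it, with 4 H/ACA genes above 2.5.

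Within the C/D class, families of imprinted clusters are given as an observation made after the values were seen. The SNORD114 genes are near copies of each other in the cluster of maternally expressed RNAs on chromosome 14. Of 16 measured, 10 were higher, beside 5.7% of all genes. These 10 are among the 14 higher genes of the C/D class. Among them, SNORD114-2, SNORD114-13, SNORD114-17, SNORD114-20 and SNORD114-22 were called through a bound. All 8 SNORD114 genes measured on both arrays lay above 0, with control signals from 21.7 to 88.7 and cordycepin signals from 38.1 to 192. The SNORD116 genes of the Prader-Willi region on chromosome 15 had all 7 below 0, a median log2 ratio of -0.63 and none past 2-fold. The brightest of them, SNORD116-19, gave 1373 and 686. The 2 measured SNORD113 genes on chromosome 14 went in opposite directions. SNORD113-5 was lower by a bound, at 71.7 and 4.84. SNORD113-3 gave 9.67 and 31.4, a log2 bound of 0.97 in the higher direction, under 2-fold. The 1 measured SNORD115 gene on chromosome 15 was higher by a bound, at 4.81 and 39.1. Probes of such copies can detect each other's transcripts, so neither family holds independent measurements. Spliceosomal and other small nuclear RNAs, 15 genes, had no call and a median 0.28 above that of all genes. RN7SL1, the RNA of the signal recognition particle, was higher at 87011 and 175943, 2.35-fold.

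Long non-coding RNAs were called more often than protein-coding genes, 156 of 1402 (11.1%) higher and 70 (4.99%) lower. They were also dimmer, with a median control signal of 163.8 compared with 806, and part of the calls were bounds. Restricted to genes measured on both arrays, 5.4004% of 1074 long non-coding RNAs were higher and 3.82% lower, compared with 3.41% and 2.94% of 12868 protein-coding genes. Among the numbered intergenic RNAs 62 of 407 were higher (15.2%, beside 5.7% of all genes), 42 of them through a bound. In the other direction 24 were lower (5.9%, beside 3.48%), 15 of them through a bound. MIR31HG, the host gene of a microRNA, was lower at 1259 and 363, with -2.86 for its other probe, and MIR210HG, host of a microRNA induced by low oxygen, was lower at 199.5 and 64.7.

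Neighbouring genes were called together more often than the shares of all genes. With genes ordered along the chromosomes, the next measured gene was also higher for 94 of the 903 higher genes (10.4%, beside 5.70% of all genes), and it was also lower for 34 of the 551 lower genes that had a next measured gene (6.17%, beside 3.48%). Runs of at least 3 numbered 13. Several joined genes of 1 family, which can share sequence, such as GBP3, GBP1 and GBP2, guanylate-binding proteins induced by interferon, of which GBP2 gave 479 and 962, and KLRC4, KLRC3 and KLRC1, receptors of natural killer cells, each with signals of at most 161. Others joined genes of different kinds. TNF and LTB, both of the TNF superfamily, and LST1 lie side by side in the major histocompatibility complex; LTB, which encodes lymphotoxin beta, gave 979.5 and 2092, TNF 37.8 and 148, and LST1 55.8 and 183. LAMB3 stood beside G0S2, an inhibitor of fat breakdown, at 359 and 771, and HSD11B1, which regenerates cortisol, at 321 and 759. FDXR, a mitochondrial electron donor, was the brightest gene in any run of higher genes, at 30108 and 59780.1, next to GRIN2C at 152 and 536. In the lower direction a run held NKAIN4 at 1315 and 327 beside BIRC7 at 489 and 181, and another SUSD2 at 13259.7 and 5667, with 0.16 for its other probe, beside GGT5 at 7489 and 2665.

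Promoter sequence was compared between genes of each direction. RefSeq promoters of 300 bases (GRCh38.p14, 250 bases before to 50 after the start) were found for 12261 of the 15845 genes. The median GC content was 58.3% for 642 higher genes, 62.5% for 404 lower genes and 64.7% for the 11215 genes under 2-fold, compared with 58.3% for all 27305 promoters of the table. The letters TATAAA, the core of the TATA box to which the general transcription machinery binds, were found on either strand in 12.5% of the promoters of higher genes, 10.4% of lower genes and 6.54% of genes under 2-fold, and in 11.95% of all promoters. Counted on the strand of the gene with the first base 35 to 25 bases before the start, a window chosen after the position of the letters had been seen, TATAAA was found in 33 of 642 higher genes (5.14%), 12 of 404 lower genes (2.97%), 2.04% of genes under 2-fold and 2.41% of all promoters. Among genes measured on both arrays the shares were 5.03%, 2.90% and 1.94%. TTTGAA was found in 17.8% of higher, 14.1% of lower and 10.1% of the other genes, and in 15.4% of all promoters. CCAAT was found in 39.1%, 30.2% and 36.2%, beside 35.7% of all promoters, and TTTCCCGC, a form of the E2F site, in 0.779%, 1.73% and 2.55%, beside 1.66%. The motifs TGACTCA, TGACGTCA, TGATGNAAT and TTTGGCGC, the NF-κB motif and GTTAAT were searched on both strands as well. The last of these was added after values were seen. The largest share of the first 5 was 5.45%, for TGACTCA in higher genes. That motif was found in 4.46% of lower genes, 3.39% of genes under 2-fold and 4.92% of all promoters. GTTAAT was found in 6.85% of higher, 8.42% of lower and 3.84% of the other genes, and in 6.89% of all promoters. These letters are descriptions of the windows and are no evidence of binding.

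The genes measured on both arrays with TATAAA in that window included 19 higher and 9 lower genes. The 3 of each with the largest differences are shown, to let the box be seen in its place in genes of either direction; each stretch runs from 75 bases before to 20 bases after the start on the strand of the gene, and capitals mark TATAAA.
TCHH (chr1:152115425-152115519, minus strand): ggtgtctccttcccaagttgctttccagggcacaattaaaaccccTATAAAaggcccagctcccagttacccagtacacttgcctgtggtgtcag
TNF (chr6:31575490-31575584, plus strand): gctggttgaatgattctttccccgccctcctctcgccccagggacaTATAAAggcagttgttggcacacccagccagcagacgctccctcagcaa
PPBP (chr4:73988171-73988265, minus strand): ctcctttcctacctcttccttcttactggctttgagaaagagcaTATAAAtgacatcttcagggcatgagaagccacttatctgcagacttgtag
PAPPA (chr9:116153716-116153810, plus strand): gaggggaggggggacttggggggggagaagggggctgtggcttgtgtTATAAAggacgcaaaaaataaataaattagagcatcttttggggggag
FZD8 (chr10:35642277-35642371, minus strand): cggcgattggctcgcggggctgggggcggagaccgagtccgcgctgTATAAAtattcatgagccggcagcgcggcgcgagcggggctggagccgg
FOS (chr14:75278753-75278847, plus strand): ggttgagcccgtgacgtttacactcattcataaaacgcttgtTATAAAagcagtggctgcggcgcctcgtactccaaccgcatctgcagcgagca

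TCHH, which encodes the hair follicle protein trichohyalin, gave 28.2 in control cells and 137 with cordycepin, 5.64-fold higher. TNF, the inflammatory cytokine, was 4.53-fold higher, and PPBP, a platelet chemokine, gave 43.5 and 168. All 3 were dim in control cells. The lower genes were brighter: PAPPA, a protease that frees insulin-like growth factor from its binding proteins, gave 14428 and 5079, the Wnt receptor gene FZD8 540 and 202, and the AP-1 gene FOS 1076 and 417. Further higher genes with the box were HMGCS1, an enzyme of cholesterol synthesis, at 699 and 1916, and INSIG1, which restrains that pathway, at 1058 and 1893; both were chosen after their values were seen.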

How the data were processed

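RNA of 1 control and 1 cordycepin culture was measured on 1 Agilent one-color array each; a further array of the series, of cells given cordyceps, entered only the choice of the brightest probe. The authors deposited intensity values from Feature Extraction 11.5.1.1, background-subtracted and detrended within the array and unscaled between arrays, and a table of the same intensity values. The methods name Cy3 and Cy5 and normalization by GeneSpring, whereas each file holds a single Cy3 channel, so ratios were taken between arrays.

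Here Agilent's controls were left out, as were 106 and 80 spots marked as uneven or as outliers of their population, log2 signals were reduced by each array's 75th percentile, and spots of a probe were averaged. Detection of a probe required the well-above-background mark in 50% of its spots or more. Calls needed 2-fold, as a measured ratio or a bound. Probes printed 10 times varied between spots by a median SD of 0.061 and 0.053 (log2). All arrays came from 1 slide and 1 scan, and their number limits the precision between conditions.

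Names came from unversioned accessions in the RefSeq table of GRCh38.p14; the array design uses another build, so that table gave names and gene order alone. Named genes are the 25 largest rises and falls whose other measured probes went the same way, the 10 largest bounds each way, up to 4 genes of each list with the largest difference, and markers; runs of neighbours and genes with TATAAA follow their own rules, and exceptions are marked; a few genes under the rule are not reported here. The genes, lists and rules were chosen with earlier results of these data known, and the proteasome list and the restriction of lists to protein-coding genes were set after values were seen. Alternatives covered scaling, normexp background correction of the median spot and background signals (offset 50), detection, outlier spots, the value table, the choice of probe and the threshold. The calling steps were tested on simulated data. Python 3.11.15, numpy 2.4.6, pandas 2.3.3, matplotlib 3.10.9, R 4.3.3 and limma 3.58.1 were used.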

Additional observations from a re-analysis of the deposited data

Results flagged for a closer look

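Probes without a RefSeq name enter no comparison above: of 9072 such probes measured on the control or cordycepin array, 895 were at least 2-fold higher (9.87%) and 348 lower (3.84%) with cordycepin, while over all probes the shares were 7.07% and 3.62%. The array of cells given cordyceps is likewise outside the comparison: of the genes described here, 13821 were measured on it and on the control array, and 380 were at least 2-fold higher and 378 lower with cordyceps, again with 1 array per condition.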

How the results depend on the processing

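The counts of 903 higher and 552 lower genes depended on the processing. Median scaling gave 561 and 1162, since it shifts every ratio down alike. Normexp background correction gave 352 and 258, and the cause was not tested. Detection on both arrays left 531 higher genes, and taking a positive, significant signal as detected gave 1819 and 1061. Thresholds of 1.5-fold and 3-fold gave 2067 and 372 higher and 1865 and 143 lower genes. The filters and thresholds change what is counted by their construction. The 75th percentile over detected probes, quantile normalization, flagged spots kept, the deposited value table, the median over probes and the brightest probe over 2 arrays left both counts within 1.5 times. Of the list medians relative to all genes, that of the clock genes ranged down from 0.49 to 0.26, of the ephrins from 0.37 to 0.22 and of the mucins from -0.26 to -0.13. Of 281 named genes with a value, none changed direction past 2-fold; 44 fell under 2-fold with normexp and 16 with median scaling, which brought 40 others past it. Most calls by a bound rest on 1 probe near background. No paired analysis was possible because there is 1 array per condition.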
